A study of Mus musculus with 12 samples.

Results

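The genes described here encode 9 proteins of NF-kB signalling that attach, remove or read ubiquitin, or pair with proteins that do. The first are Tnfaip3 (the protein A20), its binding partners Tnip1 and Tnip3, and the deubiquitinase Cyld. The others are the adaptors and ligases Traf1, Traf2, Birc2 and Birc3, and the ligase Peli1. All 9 were chosen by symbol, from array probe sets that name 1 gene only. Where a gene had several such sets, the brightest on average stood for it. All 9 symbols were found among the 19937 genes measured, 8 with 1 probe set and Birc2 with 2. The samples are 12 arrays of newly made RNA from mouse macrophages of strain C57BL/6, in 4 groups with 3 arrays each. Macrophages grown from bone marrow (BMM) had been differentiated ex vivo with macrophage colony-stimulating factor (M-CSF), in DMEM, and were either mock-treated or given R-LPS, a lipopolysaccharide of bacterial cell walls. MPI-2 is a fetal liver-derived macrophage line kept in granulocyte-macrophage colony-stimulating factor (GM-CSF) and RPMI, again mock-treated or given R-LPS, and both media held 10% fetal calf serum. No genotype other than the strain is named, and every MPI-2 array comes from this 1 line. RNA was labelled with 4-thiouridine for 60 min, and in the LPS groups labelling began 30 min after LPS and ended at 90 min. The values therefore report RNA made in that window and need not follow the total amount of a transcript.

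When Toll-like receptor 4 senses LPS, ubiquitin chains built on adaptor proteins recruit the kinases that release NF-kB from its inhibitors. TRAF, IAP and Pellino proteins are among the ligases and scaffolds that build these chains, and A20 and CYLD cut or bind them and so restrain the pathway. Several genes of this kind are themselves NF-kB targets, so the same signal that switches the pathway on also raises the supply of its brakes.

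Changes are differences of log2 values with their standard error (SE), from 1 limma fit over all 12 arrays, and group levels are means ± SD of 3 arrays. The fit takes 1 spread per gene over all groups, so a gene has the same SE in both cell types even where its SDs differ. For Cyld the SE was 0.29 in each, with an SD of 0.74 in BMM mock and 0.05 in MPI-2 LPS. A change is called higher or lower where the p-value, adjusted over all 19937 genes by the Benjamini-Hochberg method, is under 0.05. The titles speak of biological replicates but name no animal or culture, so the p-values reflect only how far these samples differ, which may partly be technical. Each value is relative to the rest of its array and comes from a bulk culture, in which fewer responding cells and less RNA per cell cannot be told apart. All 9 genes lay above the background level of 3.36 in every group, the 95th percentile of 1027 olfactory receptor genes. Across genes, r between arrays of 1 group was 0.975 to 0.989 in BMM and 0.994 to 0.996 in MPI-2, with the first BMM mock array and the third BMM LPS array least like the rest. All 9 macrophage markers were above background in every group, with array means of 7.68 to 9.10. Levels within the list differed between the cell types, in both directions. Fcgr1 stood at 5.22 in MPI-2 mock and 3.93 in MPI-2 LPS, against 8.15 and 8.24 in BMM. Itgam stood at 5.07 and 5.64 in MPI-2, against 8.39 and 7.66 in BMM. Mertk went the other way, at 9.10 and 8.22 in MPI-2 against 7.16 and 5.07 in BMM. Markers of T cells, B cells, neutrophils and erythroid cells had array means of 2.63 to 3.40, and those of fibroblasts and epithelium 3.04 to 4.13. Some blood cell markers lay above background by their group mean. Cd3e and Elane did so in every group, Cd79b and Pax5 in both BMM groups, and Camp, Prtn3 and Epor in some groups. Within these lists the epithelial marker Cdh1 stood at 6.65 ± 0.13 in MPI-2 mock and 4.97 ± 0.17 in MPI-2 LPS, against 3.73 ± 0.26 and 3.88 ± 0.25 in BMM mock and LPS. The fibroblast marker Pdgfra stood at 6.13 ± 0.20 and 4.41 ± 0.27 in MPI-2, against 3.39 ± 0.07 and 3.50 ± 0.24 in BMM. The other fibroblast and epithelial markers did not share this pattern. In BMM mock and MPI-2 mock, Col1a1 stood at 4.99 and 4.42, Col1a2 at 4.09 and 3.71, and Col3a1 at 3.97 and 3.34. Krt8 stood at 3.41 and 3.52, and Dcn, Epcam and Krt18 lay below background in every group. Cdh1 and Pdgfra thus move with cell type and, in MPI-2, with LPS. They were named after their values were seen, and their part in the results was not tested. Il6, an LPS-induced cytokine gene, rose in both cell types, by log2 7.11 ± 0.24 in BMM and 6.79 ± 0.24 in MPI-2. Cell type goes with growth factor and medium, and with any array batch that differs between the cell types, and these cannot be told apart.

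LPS raised 8 of the 9 genes in BMM and 6 in MPI-2, and lowered none in either. Over all genes, 10.3% were higher and 15.4% lower with LPS in BMM (25.7% called), and 5.17% higher and 9.58% lower in MPI-2 (14.8% called). These shares depend on the fit: with only the arrays compared, 1321 genes in place of 2053 were higher in BMM, and in MPI-2 1854 in place of 1031 were higher and 3172 in place of 1910 lower. Array weights gave 1940 higher and 3243 lower in MPI-2. All LPS arrays lay above all mock arrays for 8 of the 9 genes in BMM and 7 in MPI-2, against 15.6% and 16.6% of all genes. The median change of the 9 was log2 1.39 in BMM and 1.04 in MPI-2, against 0.04 and 0.02 over all genes. Tnfaip3, Tnip1, Tnip3, Traf1, Birc3 and Peli1 rose in both cell types, Traf2 and Birc2 were called in BMM alone, and Cyld was called in neither. Both comparisons have controls of their own, and whether a response differed between them was tested by the interaction of cell type and LPS.

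**Figure D1:**
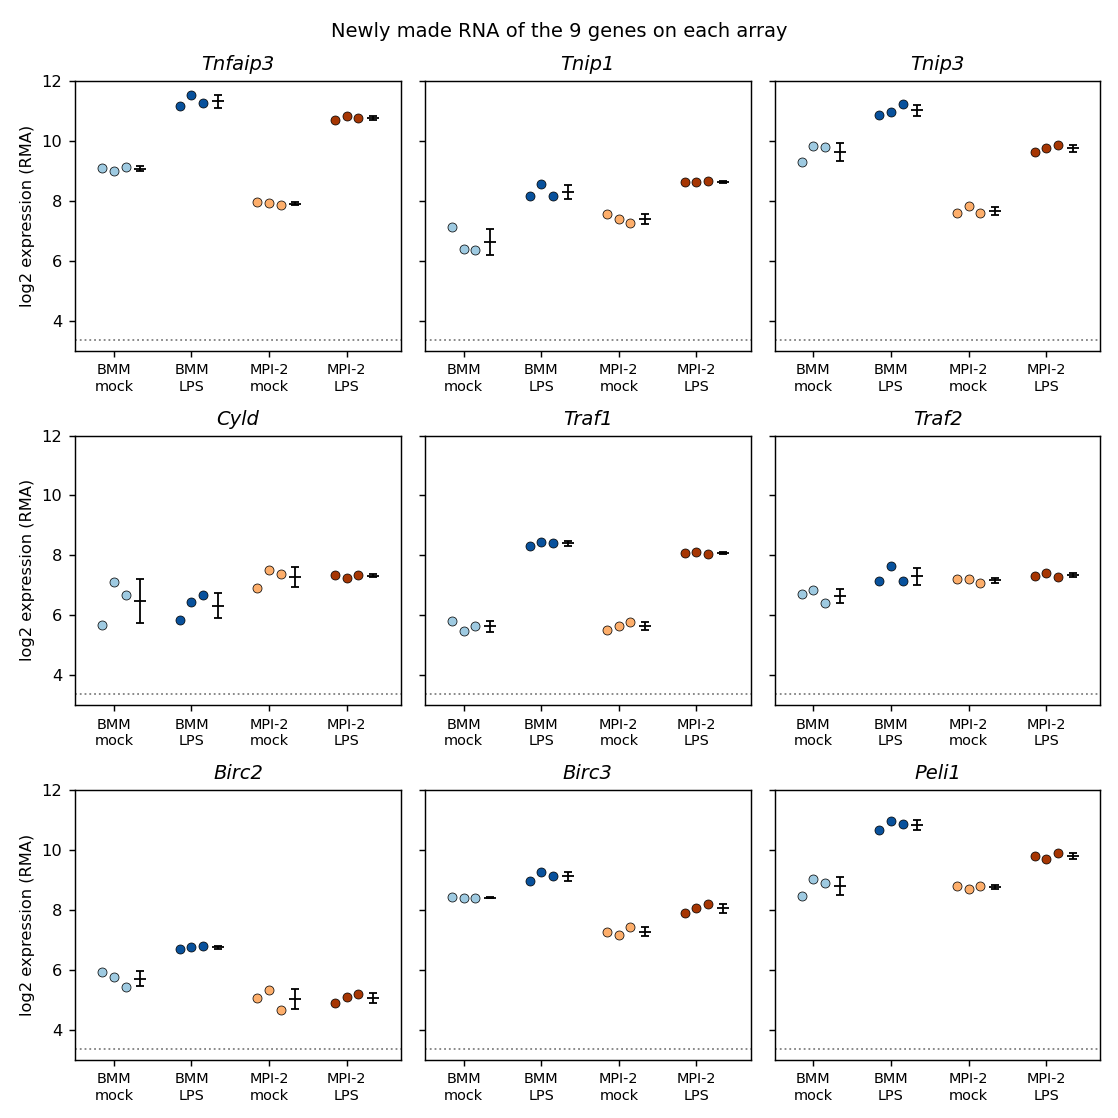
Log2 expression of each of the 9 genes on each of the 12 arrays, with 3 points per group in replicate order, and the mean and SD of the group as the black bar to the right of the points. The dotted line is the background level of 3.36. Tnfaip3, Traf1 and Peli1 stand higher in both LPS groups than in either mock group, and the BMM arrays of Cyld are the most widely spread.

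The sequences before the transcription start are shown for 6 genes, namely the 4 with a match to the NF-kB motif, among them Cyld, which was not called with LPS, and Traf1 and Peli1, which rose in both cell types and have none. They were taken from RefSeq (GRCm38.p6), which gave a start for all 9 genes, and they end at the start, or at most 30 bases past the outermost annotated start of the gene. The NF-kB consensus, the published degenerate motif of that name, was searched on both strands in the 250 bases before each start, and capitals mark its matches.
Tnfaip3, chr10:19015411-19015660, minus strand: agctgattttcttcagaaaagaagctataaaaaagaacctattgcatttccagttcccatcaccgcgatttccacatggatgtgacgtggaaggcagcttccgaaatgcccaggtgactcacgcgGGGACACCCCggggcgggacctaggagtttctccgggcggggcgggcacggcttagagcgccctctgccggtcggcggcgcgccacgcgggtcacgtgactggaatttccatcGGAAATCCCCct
Tnip1, chr11:54962941-54963190, minus strand: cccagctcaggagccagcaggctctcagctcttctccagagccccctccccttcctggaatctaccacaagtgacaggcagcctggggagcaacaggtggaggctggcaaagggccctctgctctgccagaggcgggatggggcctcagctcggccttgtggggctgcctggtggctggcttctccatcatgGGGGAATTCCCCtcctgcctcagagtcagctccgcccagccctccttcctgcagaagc
Tnip3, chr6:65590148-65590397, plus strand: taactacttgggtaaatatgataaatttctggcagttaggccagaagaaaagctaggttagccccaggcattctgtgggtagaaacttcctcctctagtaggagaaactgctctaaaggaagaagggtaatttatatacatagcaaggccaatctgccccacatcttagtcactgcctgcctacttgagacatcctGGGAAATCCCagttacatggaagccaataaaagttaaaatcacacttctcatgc
Cyld, chr8:88696778-88696907, plus strand: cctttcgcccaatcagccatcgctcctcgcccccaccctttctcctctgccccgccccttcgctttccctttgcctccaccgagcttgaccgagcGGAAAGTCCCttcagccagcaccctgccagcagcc
Traf1, chr2:34961783-34962022, minus strand: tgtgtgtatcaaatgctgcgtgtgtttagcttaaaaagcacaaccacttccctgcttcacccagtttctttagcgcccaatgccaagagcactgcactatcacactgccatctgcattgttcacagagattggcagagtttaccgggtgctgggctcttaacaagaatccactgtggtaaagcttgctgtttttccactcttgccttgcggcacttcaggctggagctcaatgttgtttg
Peli1, chr11:21091074-21091312, plus strand: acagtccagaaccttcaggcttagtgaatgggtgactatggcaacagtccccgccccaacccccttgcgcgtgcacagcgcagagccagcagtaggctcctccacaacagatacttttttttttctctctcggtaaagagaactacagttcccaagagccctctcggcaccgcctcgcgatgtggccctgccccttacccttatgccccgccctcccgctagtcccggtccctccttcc
Tnfaip3 held a match at -125 to -116 and another at -12 to -3 relative to the start, the latter, GGAAATCCCC, on the minus strand of the gene. Tnip1 held 3 overlapping matches from -58 to -47, and Tnip3 held GGGAAATCCC at -54 to -45, which fits the degenerate consensus on both strands. Cyld held GGAAAGTCCC at -155 to -146, counted from the listed start, which lies downstream of the stretch printed here. That match spans the outermost annotated start of the gene. Traf1, Traf2, Birc2, Birc3 and Peli1 held none in this window, which says only that these letters are not there. Thus 4 of the 9 genes had the consensus, against 4.46% of 27025 genes with such a window. Among the other genes of the pathway listed below, 12 of 68 with such a window had it as well. A match is a description of the letters and not a measured binding site.

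Tnfaip3 encodes A20, which edits ubiquitin chains on signalling proteins and ends NF-kB activation. On the BMM mock arrays it stood at 9.10, 8.99 and 9.15, and on the BMM LPS arrays at 11.15, 11.55 and 11.25. On the MPI-2 mock arrays it stood at 7.95, 7.93 and 7.86, and on the MPI-2 LPS arrays at 10.69, 10.84 and 10.75. No 2 of the 4 groups overlapped, and their order from the lowest was MPI-2 mock, BMM mock, MPI-2 LPS and BMM LPS. LPS raised it by log2 2.24 ± 0.12 in BMM (4.71-fold; limma adjusted p = 2.11e-09) and by 2.85 ± 0.12 in MPI-2 (7.20-fold; adjusted p = 3.49e-10). In MPI-2 it ranked 38 of 19937 genes by the size of its rise.

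Tnip1 and Tnip3 encode ABIN-1 and ABIN-3, ubiquitin-binding proteins that associate with A20. Tnip1 read 7.13, 6.41 and 6.36 in BMM mock and 8.17, 8.56 and 8.17 in BMM LPS. In MPI-2 it read 7.57, 7.38 and 7.25 in mock and 8.63, 8.62 and 8.68 in LPS. Both LPS groups lay above both mock groups, with the first BMM mock array high for its group. It rose by log2 1.67 ± 0.18 in BMM (3.18-fold; limma adjusted p = 4.06e-06) and by 1.24 ± 0.18 in MPI-2 (2.37-fold; adjusted p = 1.83e-04). Tnip3 read 9.30, 9.82 and 9.79 in BMM mock and 10.88, 10.95 and 11.23 in BMM LPS. In MPI-2 it read 7.59, 7.83 and 7.61 in mock and 9.65, 9.76 and 9.87 in LPS. The MPI-2 LPS arrays overlapped the BMM mock arrays, so the line reached with LPS about the level that BMM had without it. The rise was log2 1.39 ± 0.15 in BMM (2.62-fold; adjusted p = 4.4e-06) and 2.08 ± 0.15 in MPI-2 (4.24-fold; adjusted p = 1.68e-07).

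Cyld encodes the deubiquitinase that removes linear and other non-degradative chains. Its BMM mock arrays read 5.68, 7.11 and 6.68 and its BMM LPS arrays 5.85, 6.43 and 6.69. Its MPI-2 mock arrays read 6.90, 7.53 and 7.39 and its MPI-2 LPS arrays 7.34, 7.26 and 7.36. Mock and LPS arrays overlapped in both cell types, and the BMM mock group was the most variable of any group and gene here, with an SD of 0.74. The change with LPS was log2 -0.17 (95% interval -0.79 to 0.45; limma adjusted p = 0.735) in BMM and 0.04 (-0.58 to 0.66; adjusted p = 0.968) in MPI-2. The upper bounds lie below the estimate of each rise called among the other genes in the same cell type, but some intervals overlap. In BMM the intervals of Traf2 and Birc3 began at 0.33 and 0.44, and in MPI-2 that of Birc3 began at 0.50. Without the first BMM mock array and the third BMM LPS array, an alternative chosen after seeing the data, Cyld was lower with LPS in BMM (-0.75, adjusted p = 0.0139), and without 1 array at a time it ranged from -0.57 to 0.15, not called.

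Traf1 encodes an adaptor without a ligase domain of its own that pairs with TRAF2. It read 5.81, 5.46 and 5.63 in BMM mock and 8.32, 8.46 and 8.42 in BMM LPS. In MPI-2 it read 5.52, 5.64 and 5.78 in mock and 8.09, 8.10 and 8.05 in LPS. The mock groups of the cell types overlapped and the LPS groups did not. It rose by log2 2.76 ± 0.12 in BMM (6.79-fold; limma adjusted p = 1.86e-10), the largest rise of the 9 genes there, and by 2.43 ± 0.12 in MPI-2 (5.40-fold; adjusted p = 2.28e-09). Traf2, the scaffold that brings IAP ligases to receptor complexes, spanned 6.40 to 6.86 in BMM mock and 7.14 to 7.64 in BMM LPS. It spanned 7.08 to 7.22 in MPI-2 mock and 7.29 to 7.40 in MPI-2 LPS. The BMM LPS range overlaps both MPI-2 ranges, and in each cell type the LPS arrays lay above the mock arrays. Traf2 rose in BMM by 0.65 ± 0.15 (1.57-fold; adjusted p = 0.00434), and the change in MPI-2 was 0.16 (-0.16 to 0.49; adjusted p = 0.638).

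Birc2 and Birc3 encode the ligases cIAP1 and cIAP2, which are close relatives whose older names have been used for one another. Birc2 read 5.93, 5.75 and 5.44 in BMM mock and 6.69, 6.76 and 6.79 in BMM LPS. In MPI-2 it read 5.07, 5.31 and 4.65 in mock and 4.89, 5.10 and 5.21 in LPS. All BMM arrays lay above all MPI-2 arrays, and within MPI-2 mock and LPS overlapped. The rise was log2 1.04 ± 0.17 in BMM (2.05-fold; limma adjusted p = 2.02e-04), and the change in MPI-2 was 0.06 (-0.30 to 0.41; adjusted p = 0.92). The other Birc2 probe set was dimmer, at 4.21 to 5.23 over the 12 arrays, and did not follow the same pattern: its means differed by 0.45 with LPS in BMM and by 0.27 in MPI-2. Birc3 read 8.42, 8.39 and 8.40 in BMM mock and 8.95, 9.27 and 9.14 in BMM LPS. In MPI-2 it read 7.26, 7.15 and 7.42 in mock and 7.90, 8.06 and 8.19 in LPS. None of the 4 groups overlapped, and both MPI-2 groups lay below both BMM groups. Birc3 rose by 0.71 ± 0.13 in BMM (1.64-fold; adjusted p = 4.88e-04) and by 0.77 ± 0.13 in MPI-2 (1.71-fold; adjusted p = 4.8e-04).

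Peli1 encodes a Pellino ligase that modifies IRAK kinases downstream of Toll-like receptors. It read 8.45, 9.03 and 8.90 in BMM mock and 10.66, 10.97 and 10.86 in BMM LPS. In MPI-2 it read 8.79, 8.68 and 8.80 in mock and 9.78, 9.70 and 9.90 in LPS. The mock groups overlapped, and with LPS the BMM arrays stood above those of MPI-2. The rise was log2 2.04 ± 0.15 in BMM (4.10-fold; limma adjusted p = 5.13e-08) and 1.04 ± 0.15 in MPI-2 (2.06-fold; adjusted p = 1.4e-04). The 14 rises of these genes that were called kept their call under every alternative run.

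The size of the response to LPS differed between the cell types for 4 of the 9 genes, 2 larger and 2 smaller in MPI-2. Over all genes, 7.08% had a more positive and 6.27% a more negative change in MPI-2 (13.4% in either direction). Peli1 rose less in MPI-2, by log2 -0.995 ± 0.21 (limma adjusted p = 0.0042), and so did Birc2, by -0.98 ± 0.24 (adjusted p = 0.0107). Peli1 kept this call in all 23 alternatives. Birc2 lost it with the mean of its 2 probe sets (-0.58, adjusted p = 0.0909) and kept it in the other 22, which all rest on the brighter set. The means of the dimmer set were 4.32 and 4.76 in BMM mock and LPS, and 4.59 and 4.86 in MPI-2 mock and LPS. Its difference of responses was not tested.

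Tnfaip3 rose more in MPI-2, by log2 0.61 ± 0.17 (limma adjusted p = 0.0287), as did Tnip3, by 0.70 ± 0.22 (adjusted p = 0.0449). Both lie near the threshold, and leaving out 1 array often ended the call. For Tnfaip3 it ended without the first BMM LPS array (0.53), the third BMM mock array (0.58), any MPI-2 mock array (0.63, 0.62 and 0.58), or the second or the third MPI-2 LPS array (0.57 and 0.62), with adjusted p up to 0.0795. It also ended with replicate numbers as a block, within cell type (adjusted p = 0.0643) or as the sample descriptions give them (adjusted p = 0.0712). For Tnip3 it ended without any one MPI-2 LPS array (0.75, 0.70 and 0.64), the second or the third BMM mock array (0.60 and 0.62), the first or second BMM LPS array (0.62 and 0.66), or the first or the third MPI-2 mock array (0.65 and 0.66), with adjusted p up to 0.119, and after median centring (0.67, adjusted p = 0.0845). The direction stayed the same in each of these fits.

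For the other 5 genes the difference was not called, which does not show that the responses were alike. The 95% interval was -0.97 to 0.13 for Tnip1, -0.70 to 0.04 for Traf1 and -0.95 to -0.03 for Traf2, whose adjusted p-values from limma were 0.381, 0.284 and 0.184. It was -0.67 to 1.09 for Cyld and -0.32 to 0.44 for Birc3 (adjusted p = 0.855 and 0.913). Tnip1 was called as rising less in MPI-2 without the first BMM mock array (-0.67, adjusted p = 0.0314), the array that stood high for its group.

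**Figure D2:**
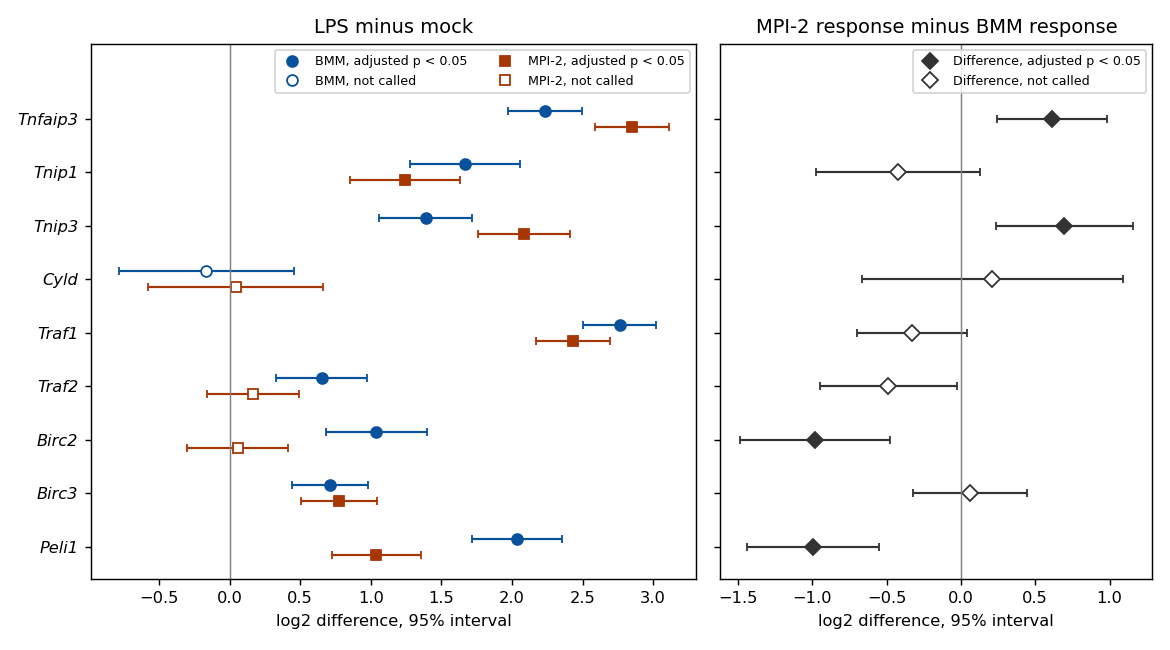
Left, the log2 difference of LPS minus mock for each gene in BMM (blue circles) and MPI-2 (orange squares); right, the MPI-2 response minus the BMM response (diamonds). Bars are 95% intervals of the limma fit over 12 arrays, filled symbols have an adjusted p under 0.05 and open symbols do not. Peli1 and Birc2 lie left of 0 on the right, and Tnfaip3 and Tnip3 right of 0.

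Without LPS, MPI-2 made less RNA of 4 of these genes than BMM and more of 3. Over all genes 18% were lower and 20.6% higher in MPI-2 (38.6% called). The arrays of MPI-2 lay wholly below those of BMM for 4 of the 9 genes and wholly above for 2, against 29.3% and 23% of all genes. Tnip3 had the largest gap, log2 -1.96 ± 0.15 (3.88-fold lower; limma adjusted p = 4.88e-08). Tnfaip3 was lower by -1.17 ± 0.12 (2.25-fold; adjusted p = 1.38e-06), Birc3 by -1.13 ± 0.13 (2.19-fold; adjusted p = 2.85e-06) and Birc2 by -0.70 ± 0.17 (1.62-fold; adjusted p = 0.00358). The dimmer Birc2 probe set pointed the other way, with means 0.27 higher in MPI-2, and with the mean of both sets Birc2 was not called (-0.21, adjusted p = 0.28).

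Tnip1 was higher in MPI-2 mock by log2 0.77 ± 0.18 (1.70-fold; limma adjusted p = 0.00324), Cyld by 0.78 ± 0.29 (1.72-fold; adjusted p = 0.0448) and Traf2 by 0.52 ± 0.15 (1.43-fold; adjusted p = 0.0134). None of these 3 calls held when the arrays were scaled further by cyclic loess (0.34, 0.39 and 0.11) or by quantile normalization (0.45, 0.48 and 0.18). The Cyld arrays of the groups overlapped, and without the first BMM mock array its value was 0.38 and not called. The Cyld call also ended without the third BMM mock array (0.88), the second or the third MPI-2 mock array (0.66 and 0.72), the second BMM LPS array (0.78) or any MPI-2 LPS array (0.78), with only the arrays compared (0.78, adjusted p = 0.0781), and with the description numbers as a block (0.51, adjusted p = 0.182). In all, 13 of 23 alternatives ended it. The Traf2 call ended without the third BMM mock array (0.39). Traf1 and Peli1 were not called, at 0.01 (-0.25 to 0.27; adjusted p = 0.953) and -0.04 (-0.35 to 0.28; adjusted p = 0.873), but were lower in MPI-2 after cyclic loess (-0.39, adjusted p = 0.0329, and -0.47, adjusted p = 0.00385). Median centring moved the median of all genes by 0.19 in this comparison, and the share of calls that were higher from 53.4% to 72.5%.

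With LPS, 6 of the 9 genes were lower in MPI-2 than in BMM and 1, Cyld, was higher. Over all genes 21.6% were lower and 22.5% higher (44.1% called). The arrays lay wholly below those of BMM for 6 of the 9 genes and wholly above for 2, against 31.1% and 24.4% of all genes. Birc2 had the largest gap, log2 -1.68 ± 0.17 (3.20-fold lower; limma adjusted p = 6.17e-07), against a mean 0.10 higher in MPI-2 by its dimmer probe set. Tnip3 was lower by -1.26 ± 0.15 (2.40-fold; adjusted p = 5.31e-06), Birc3 by -1.07 ± 0.13 (2.10-fold; adjusted p = 4.29e-06), Peli1 by -1.03 ± 0.15 (2.04-fold; adjusted p = 3.33e-05) and Tnfaip3 by -0.56 ± 0.12 (1.47-fold; adjusted p = 0.00166). Tnip3, Birc3 and Tnfaip3 were thus lower in MPI-2 both with and without LPS, and Peli1 only with LPS on the deposited values, the interaction of which is given above.

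Traf1 was lower in MPI-2 LPS by log2 -0.32 ± 0.12 (limma adjusted p = 0.0457), a call that 17 of 23 alternatives ended. Among them were leaving out any array of the 2 LPS groups (-0.36 to -0.29, adjusted p up to 0.115), the third BMM mock array, or the first or second MPI-2 mock array (-0.32 each). Cyld was higher by 0.99 ± 0.29 (1.99-fold; adjusted p = 0.012), but not without the first BMM LPS array (0.76, adjusted p = 0.0672), after cyclic loess (0.52, adjusted p = 0.198) or after quantile normalization (0.58, adjusted p = 0.171). Tnip1 was not called (0.34, -0.05 to 0.73; adjusted p = 0.136), though it was without the first BMM mock array (0.34, adjusted p = 0.0448), and turned to -0.12 after cyclic loess. Traf2 was at 0.03 (-0.29 to 0.35; adjusted p = 0.882) and was lower after cyclic loess (-0.45, adjusted p = 0.0155). Median centring moved the median of all genes by 0.16, cyclic loess by 0.13 and quantile normalization by 0.13. The share of calls that were higher was 51% on the deposited values and 69.6% after median centring.

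**Figure D3:**
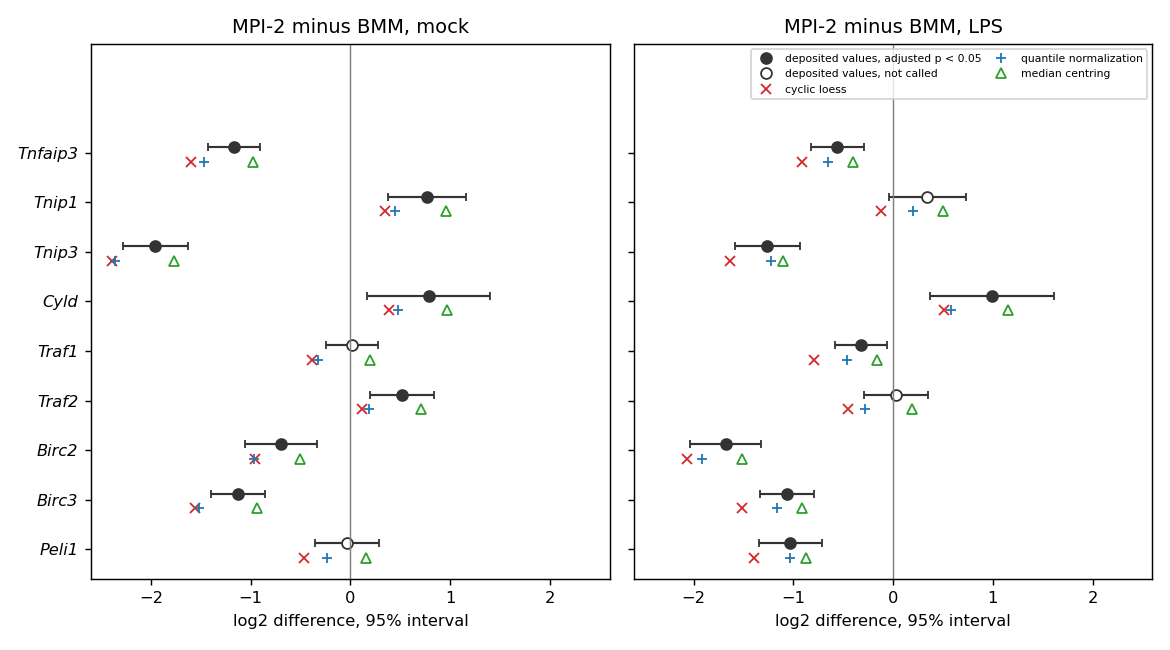
The log2 difference of MPI-2 minus BMM for each gene in mock (left) and in LPS (right), on the deposited values (circles with 95% intervals, filled where the adjusted p is under 0.05) and after 3 further scalings of the arrays. Tnfaip3, Tnip3, Birc2 and Birc3 lie left of 0 under each scaling in both panels, while in mock Tnip1, Cyld and Traf2 lie nearer to 0 after cyclic loess and quantile normalization.

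Genes whose values over the 12 arrays were most like those of a member were sought among 11261 named genes above background. The arrays fall into 4 groups, so these Pearson correlations describe shared differences between groups. Tnfaip3 was nearest to Acod1, which makes itaconate, and to the chemokine Ccl4 (r = 0.993 and 0.990). Traf1 was nearest to Serpinb2 and Rnd3 (0.994 and 0.991), Tnip1 to Il1b and the kinase Map3k8 (0.973 and 0.971), and Tnip3 to Ifi203 and the caspase Casp4 (0.985 and 0.982). Peli1 was nearest to the kinase Jak2 and to Tpm4 (0.988 and 0.984), Birc3 to Nckap1l and Crlf3 (0.988 and 0.986), and Birc2 to the interferon regulatory factor Irf1 and Sap30 (0.976 each). Cyld was nearest to Smc5 and the mannose receptor Mrc1 (0.974 and 0.972), and Traf2, with the lowest value of all, to Aebp2 and Ccdc25 (0.935 each). Among the 9 genes themselves, Tnip3 and Birc3 were most alike (r = 0.948), followed by Tnfaip3 and Traf1 (0.946), and Cyld and Birc2 least (-0.71).

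Other genes of the pathway were taken from 7 lists, of which 81 of 88 entries were measured. Of the 81, 33 rose and 8 fell with LPS in BMM (median log2 0.30), and 22 rose and 6 fell in MPI-2 (median 0.10). Over all genes 10.3% rose and 15.4% fell in BMM, and 5.17% and 9.58% in MPI-2. Each list count below has these same shares beside it. The number of the 81 that fell was 4 in BMM without the second BMM mock array. In MPI-2 it was 3 without the first or second MPI-2 mock array or the second MPI-2 LPS array. NF-kB subunits and inhibitors rose in 7 of 10 cases in BMM and 8 of 10 in MPI-2, with none lower (medians 0.80 and 0.97). The inhibitor-family gene Nfkbiz rose 2.83-fold in BMM (limma adjusted p = 2.32e-06) and by log2 3.90 ± 0.16 in MPI-2 (adjusted p = 1.45e-10). Receptors, adaptors and kinases on which these proteins act rose in 14 of 21 cases and fell in 2 in BMM, and rose in 8 and fell in 2 in MPI-2 (medians 0.61 and 0.23). Cd40, a receptor that binds TRAF proteins, rose by 4.50 ± 0.16 in BMM (adjusted p = 1.39e-11) and was at 0.23 ± 0.16 in MPI-2 (adjusted p = 0.48), a difference of -4.28 ± 0.22 (adjusted p = 7.14e-09).

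Among the closer relatives of the 9 genes, 9 other TRAF, IAP and Pellino genes, 1 rose and 3 fell in BMM, and 2 rose in MPI-2 (medians 0.22 and -0.01). Traf5, another TRAF adaptor, rose by log2 2.14 ± 0.17 in MPI-2 (limma adjusted p = 4.15e-07) and fell in BMM, -0.49 ± 0.17 (adjusted p = 0.0493), a difference of 2.62 ± 0.24 (adjusted p = 2.29e-06). Peli2 fell in BMM, -0.89 ± 0.17 (adjusted p = 8.57e-04), the opposite direction to Peli1. Of 8 genes of linear ubiquitin and its editors 2 rose and 1 fell in BMM and none was called in MPI-2, where 3 had an unadjusted p under 0.05 by limma (medians 0.18 and 0.01). Rnf31, the catalytic subunit of the linear ubiquitin ligase, rose in BMM by 0.97 ± 0.19 (adjusted p = 0.00117), and Tnip2, the third ABIN gene, by 1.27 ± 0.15 (adjusted p = 7.26e-06).

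Of 19 A20 partners and other deubiquitinases 6 rose and 1 fell in BMM, and 2 rose and 3 fell in MPI-2 (medians 0.10 and 0.05). The shares of all genes were 10.3% higher and 15.4% lower in BMM, and 5.17% and 9.58% in MPI-2. The A20 partners Rnf11 and Tax1bp1 rose in MPI-2, by log2 1.34 ± 0.13 (limma adjusted p = 2.73e-06) and 1.01 ± 0.18 (adjusted p = 0.00114), and the rise of Rnf11 was larger there than in BMM by 1.04 ± 0.18 (adjusted p = 0.00102). Usp18, which removes the ubiquitin-like ISG15, rose in BMM by 2.19 ± 0.14 (adjusted p = 1.49e-08). E2 enzymes rose in 2 of 9 cases in BMM with none lower, and in MPI-2 1 rose and 1 fell (medians 0.41 and -0.06). Ube2n, the E2 that works with TRAF ligases, rose in BMM by 0.81 ± 0.17 (adjusted p = 0.00179). Of 5 parts of the ligase that marks IkB for destruction, 1 rose and 1 fell in BMM and 1 rose in MPI-2 (medians 0.10 and -0.01), with Fbxw11 higher in both, by 0.81 ± 0.14 (adjusted p = 3.31e-04) and 0.49 ± 0.14 (adjusted p = 0.0231).

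**Figure D4:**
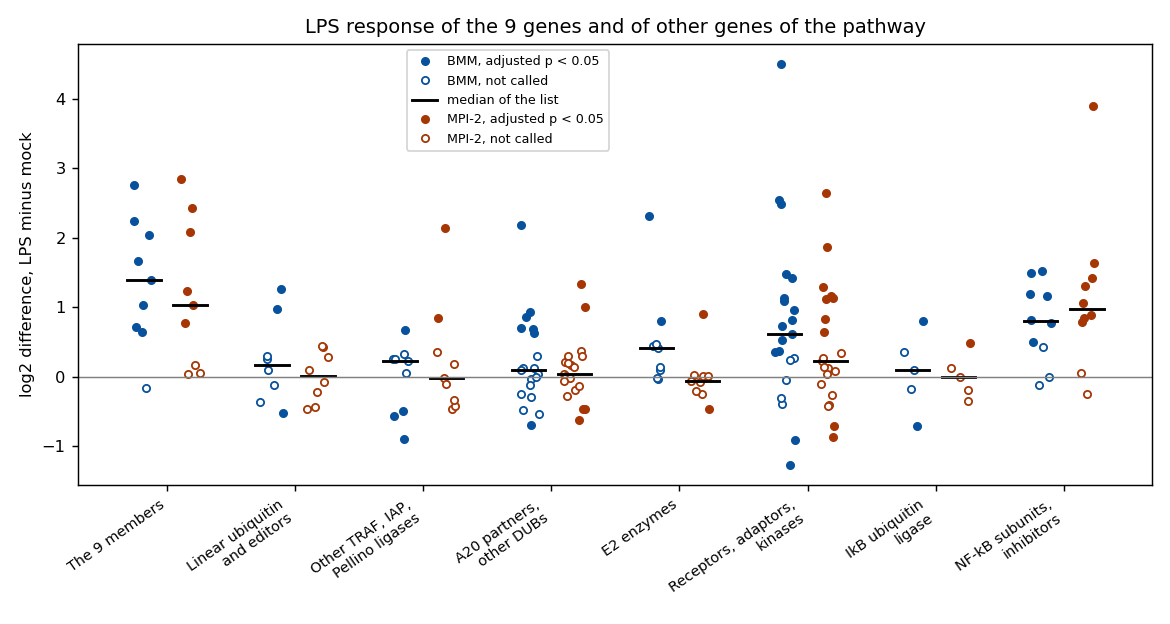
Log2 difference of LPS minus mock in BMM (blue) and MPI-2 (orange) for each of the 9 genes, at the left, and for each of 81 other genes in 7 lists of the pathway. Filled points have an adjusted p under 0.05, open points do not, and black bars are medians. The medians of the 9 genes, 1.39 and 1.04, lie above those of the lists, the nearest being NF-kB subunits and inhibitors at 0.80 and 0.97.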

How the data were processed

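Each probe set has a deposited log2 value on each array, which the authors made with RMA and the package affy, per the submitters' processing notes, from amplified newly made RNA (200 ng, per the labels' protocols). The sources used here give neither versions nor whether all 12 arrays went through 1 run. RMA gives log2, and the range of 1.18 to 12.82 fits that scale. RMA sets the arrays of a run to 1 distribution, so overall changes in the amount of RNA are removed. The deposited probe set values still differed in spread between the cell types. Their interquartile range was 2.38 to 2.88 on the BMM arrays and 2.95 to 3.21 on the MPI-2 arrays. The reason was not tested.

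Of 34760 probe sets 21640 name 1 gene, 1321 several and 11799 are unnamed here. Symbols were updated through RefSeq (GRCm38.p6; 19855 matched), and the probe set with the highest mean stood for each of 19937 genes, with no filter. A model with 4 group means was fitted with limma 3.58.1 in R 4.3.3 (8 residual degrees of freedom, 6.99 added by the empirical Bayes step), tested on simulated data, and 5 comparisons were drawn from it. Groups came from the sample titles. No 2 arrays were identical. With no read counts behind an array, precision rests on the number of arrays.

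The members, pathway lists, motif and comparisons were chosen with earlier results of these data known. All 9 members are named. Of a pathway list the rule allows up to 2 genes per comparison with the smallest adjusted p whose arrays do not overlap between groups, given in part, and Traf5 in BMM and Cd40 in MPI-2 are given beside their calls in the other cell type. For each member the 2 genes with the highest correlation are named, without clone names, predicted genes or small RNA genes. Alternatives were 3 scalings, a background filter, other probe sets, a trended prior, array weights, smaller fits, replicate blocks and leaving out arrays.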

Additional observations from a re-analysis of the deposited data

Results flagged for a closer look

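These 4 results stood out because the response to LPS differed between the cell types by the interaction term itself (limma, adjusted over all genes). Peli1 rose less in MPI-2 than in BMM by log2 -0.995 (adjusted p = 0.0042; range over the main setting and the alternatives 8.33e-04 to 0.0169) and Birc2 by -0.98 (adjusted p = 0.0107; range 0.00304 to 0.0909). Every MPI-2 array with LPS read 9.70 to 9.90 for Peli1, against 10.66 to 10.97 in BMM. Tnfaip3 rose more in MPI-2 by 0.61 (adjusted p = 0.0287; range 0.00144 to 0.0795) and Tnip3 by 0.70 (adjusted p = 0.0449; range 8.43e-04 to 0.119).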

How the results depend on the processing

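Of 45 member results, 26 kept their direction and call under every alternative. Of 1053 values under alternatives, 961 kept both, 59 lost the call, 6 gained it and 27 turned sign, of which 2 also gained a call; the cause was not tested. Cyclic loess and quantile normalization left 0 of the 9 genes higher in MPI-2 mock and 0 in MPI-2 LPS, and 34 and 30 pathway genes lower in mock; loess left 13 pathway genes higher with LPS. Traf1 in mock turned to -0.39 and -0.33, Traf2 with LPS to -0.45 and -0.29, and Tnip1 with LPS to -0.12 (loess). Median centring gave 2 of the 9 higher with LPS, 1 with a larger response in MPI-2, 1910 and 2242 genes lower in mock and LPS, and 0.15 for Peli1 in mock. Genes above background alone gave 2865 lower with LPS. Quantile normalization left 5 pathway genes lower with LPS in BMM. With only the arrays compared, 1321 genes were higher and 4 pathway genes lower in BMM, and 1854 higher, 3172 lower and 13 pathway genes lower in MPI-2; array weights gave 1940, 3243 and 13. The mean of all probe sets left 1 of the 9 with a smaller response in MPI-2, and the other Birc2 probe set gave 0.27 (mock) and 0.096 (LPS) between cell types. Without the first BMM mock and the third BMM LPS array together, chosen after seeing the data, 1 of the 9 and, in MPI-2, 11 pathway genes fell with LPS, 22 pathway genes had a smaller response in MPI-2, and Traf2 with LPS was -0.055.

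Leaving out 1 array at a time gave 4 to 8 pathway genes lower with LPS in BMM and 3 to 9 in MPI-2, 0 to 2 of the 9 with a larger response in MPI-2, 1 to 3 higher in mock and 0 to 2 higher with LPS. Cyld ranged from -0.57 to 0.15 (LPS in BMM), -0.14 to 0.17 (LPS in MPI-2) and -0.10 to 0.62 (difference). Birc2 with LPS in MPI-2 ranged from -0.12 to 0.21, the Birc3 difference from -0.026 to 0.14, Traf1 in mock from -0.076 to 0.10, Peli1 in mock from -0.21 to 0.082 and Traf2 with LPS from -0.055 to 0.20.

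Whether the title numbers pair the samples could not be decided, since deviations from a mean of 3 arrays depend on one another. Deviations of same-numbered mock and LPS arrays correlated at 0.29, -0.096 and 0.035 in BMM and at 0.035, -0.18 and -0.14 in MPI-2. Those of differently numbered BMM arrays correlated at -0.24 to 0.26. With the title numbers as a replicate block, 2035 genes were higher and 3147 lower with LPS in BMM and 1058 and 1930 in MPI-2, with 8 and 6 of the 9 higher. The descriptions number the MPI-2 mock arrays 2 to 4 where the titles say 1 to 3, so the labels leave their pairing unclear. A block within cell type, or by the numbers of the descriptions, left 1 of the 9, Tnip3, with a larger response in MPI-2. The description block gave -0.12 for Birc2 with LPS in MPI-2 and -0.036 for Traf1 in mock.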

Other observations

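Between the cell types, some pathway genes outside the 9 stood far apart. Usp18 stood at 9.47 to 9.81 in BMM LPS and at 3.37 to 3.67 in MPI-2 LPS, a level close to background, and was lower in MPI-2 by log2 -6.14 ± 0.14 (limma adjusted p = 7.13e-14). Cd40 was lower in MPI-2 LPS by -5.84 ± 0.16 (adjusted p = 2.89e-13) and Ube2l6, the E2 enzyme for ISG15, by -3.59 ± 0.18 (adjusted p = 2.66e-10). Their levels in MPI-2 LPS, 4.09 and 4.10, were also not far above background. Otulin, which cuts linear ubiquitin, was higher in MPI-2 LPS by 1.45 ± 0.14 (adjusted p = 4.63e-07), while Rnf31, which builds it, was lower by -1.50 ± 0.19 (adjusted p = 9.82e-06). The changes of both with LPS differed between the cell types, by 0.95 ± 0.20 for Otulin (adjusted p = 0.00398) and by -1.20 ± 0.27 for Rnf31 (adjusted p = 0.00713).

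Without LPS, MPI-2 had more Traf6, the TRAF ligase of Toll-like receptor signalling (log2 1.34 ± 0.16; limma adjusted p = 5.98e-06), and less Cd14, the LPS co-receptor (-2.43 ± 0.13; adjusted p = 5.97e-10). Cd14 then rose in MPI-2 by 2.64 ± 0.13 with LPS (adjusted p = 1.83e-09), more than in BMM by 2.11 ± 0.18 (adjusted p = 1.32e-06). Among the 81 pathway genes 22 were higher and 18 lower in MPI-2 mock, against 20.6% and 18% of all genes, and 26 higher and 23 lower in MPI-2 LPS, against 22.5% and 21.6%. After cyclic loess 15 were higher and 34 lower in mock, and 13 higher and 33 lower with LPS.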
